A study of Homo sapiens with 2 samples.

Results

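The NUDIX hydrolases and related enzymes that sanitise the nucleotide pool were examined in THP-1, an established line grown from a patient with acute monocytic leukaemia and carrying a KMT2A fusion. The 9 genes NUDT1, NUDT5, NUDT18, NUDT3, NUDT4, NUDT10, NUDT11, DUT and ITPA were taken by gene name from a deposited table of 30856 gene rows, and all 9 were found. Poly(A) RNA of untreated parental cells (1 library) was compared with that of a subline (1 library) that had been exposed to cytarabine (Ara-C) in steps from 5 nM up to 10 µM until it was resistant. Both groups grew in the same medium with serum and antibiotics. The resistant cells were taken as resistant once they doubled as fast as the untreated cells. Whether the resistant line is 1 clone, and whether the drug was present when RNA was taken, was not given in the sources used here.

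The parental library held 57434972 counts in total and the resistant one 58285463. Neither group had a replicate, so a difference between these 2 libraries cannot be set against the spread between cultures. Intervals are exact 95% intervals that cover counting error only. Levels are in FPKM, fragments per kilobase of transcript scaled to the mapped total, which corrects for gene length. Of 10 myeloid and monocytic marker genes, 9 reached 1 FPKM in at least 1 library, and CD14 did not (0.50 FPKM in parental and 0.03 in resistant cells). Of 12 markers of T, B, erythroid, epithelial and fibroblast cells, 6 were in the table and 0 reached 1 FPKM. Of the 9 expressed myeloid markers, 7 were below and 2 above equal levels on the log2 scale. Over all 11388 expressed genes with a symbol, 6065 were below and 5277 above. The FPKM of the 9 markers summed to 519 in parental and 391.5 in resistant cells. Lysozyme (LYZ) was at 225 FPKM in parental and 95.8 in resistant cells, a fall at least as large as that of the sum. Myeloperoxidase (MPO) was at 2.81 and 0.94 (0.336-fold by counts, 0.288 to 0.392). The receptor gene CSF1R was at 12.2 and 7.74 in the same order, while the Fc receptor gene FCGR1A was higher, at 29.6 and 41.2. The other expressed markers lay nearer to equal levels by counts: CEBPA at 1.02-fold, SPI1 at 0.970, CD33 at 0.937, CD68 at 0.926 and ITGAM at 0.886. The part of these differences in the results below was not tested.

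Cells keep their nucleotide pool clean because polymerases insert damaged or wrong nucleotides that lie in it. NUDIX enzymes share a conserved motif, the Nudix box, and cut a diphosphate bond in substrates made of a nucleoside diphosphate linked to another group. NUDT1 (also called MTH1) hydrolyses oxidised purine triphosphates such as 8-oxo-dGTP, and NUDT5 and NUDT18 act on oxidised purine diphosphates. NUDT3, NUDT4, NUDT10 and NUDT11 belong to the same family by fold but are best known as diphosphoinositol polyphosphate phosphohydrolases. They remove phosphate from inositol pyrophosphates and also cut diadenosine polyphosphates. DUT (dUTPase) and ITPA (inosine triphosphatase) are not NUDIX enzymes. DUT turns dUTP into dUMP, which keeps uracil out of DNA, and ITPA removes inosine and deoxyinosine triphosphates. Cytarabine itself is a nucleoside analogue that acts after conversion to its triphosphate.

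The 4 diphosphoinositol phosphatases were the only rows of the table with the same orthology entry, and their Nudix boxes show how close they are. The coding bases of the box are printed 5′ to 3′ from GENCODE release 29 (GRCh38), with capitals at each base that differs from NUDT10. They are shown because the findings turn on this subgroup and on how far reads of its members can be told apart.
NUDT10: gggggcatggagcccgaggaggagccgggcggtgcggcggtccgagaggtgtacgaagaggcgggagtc
NUDT11: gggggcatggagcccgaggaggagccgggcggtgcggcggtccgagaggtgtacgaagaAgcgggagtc
NUDT4: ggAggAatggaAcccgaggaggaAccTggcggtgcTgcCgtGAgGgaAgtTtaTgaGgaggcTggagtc
NUDT3: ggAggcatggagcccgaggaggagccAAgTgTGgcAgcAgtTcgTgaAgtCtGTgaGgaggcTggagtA
The box of 69 bases differed from NUDT10 at 1 base in NUDT11 (G60A, counted from the first base of the box), at 15 bases in NUDT4 and at 17 in NUDT3. It lies in 1 exon in NUDT10 (chrX:51333113-51333181, plus strand) and NUDT11 (chrX:51496229-51496297, minus strand). In NUDT4 (chr12:93394660-93395497) and NUDT3 (chr6:34295677-34341921) the same motif is split by an intron. Over the whole coding sequence, NUDT10 and NUDT11 shared 487 of 492 bases (99.0%). Over aligned bases, with gaps left out, NUDT4 was 80.9% identical to NUDT10, and NUDT3 was 71.8% identical to it. GENCODE places all coding bases of NUDT10 and of NUDT11 in 1 exon each, against 5 exons each in NUDT3 and NUDT4. A Nudix box was also found in NUDT1, NUDT5 and NUDT18, and none was found in DUT or ITPA.

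NUDT10 and NUDT11 were the members that stood lowest in resistant relative to parental cells, while the other 7 were between 0.728-fold and 1.29-fold. In bulk RNA, fewer cells that express a gene and less of its RNA per cell cannot be told apart. NUDT10 was at 5.19 FPKM in the parental and 0.73 FPKM in the resistant library. NUDT11 was at 3.46 FPKM in the parental and 1.22 FPKM in the resistant library. These are low levels in both libraries, and NUDT10 was below 1 FPKM in resistant cells. From 714 and 103 counts, NUDT10 was 7.03-fold lower (5.71 to 8.74) once each library's total was taken into account. From 550 and 198 counts, NUDT11 was 2.82-fold lower (2.39 to 3.33). The intervals of these folds do not overlap, so NUDT10 differed more between these libraries than NUDT11.

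A gene was counted as apart when log2((FPKM resistant + 1)/(FPKM parental + 1)) reached 1 in either direction, called a 2-fold difference here. By this rule 2 of 9 members were at least 2-fold lower and 0 were at least 2-fold higher. Among all 11388 expressed genes with a symbol, 1.23% were at least 2-fold lower and 0.632% at least 2-fold higher (1.86% in either direction). The members were chosen with these values known, so the counts describe the set and support nothing beyond it. On this scale the log2 ratio was -1.84 for NUDT10, with 0.158% of expressed genes lower still, and -1.01 for NUDT11, with 1.18% lower still. NUDT11 thus lay just past the rule, and with a pseudocount of 5 FPKM 0 members passed it. The median log2 ratio of the 9 members was -0.19, against -0.02 over all expressed genes.

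**Figure D1:**
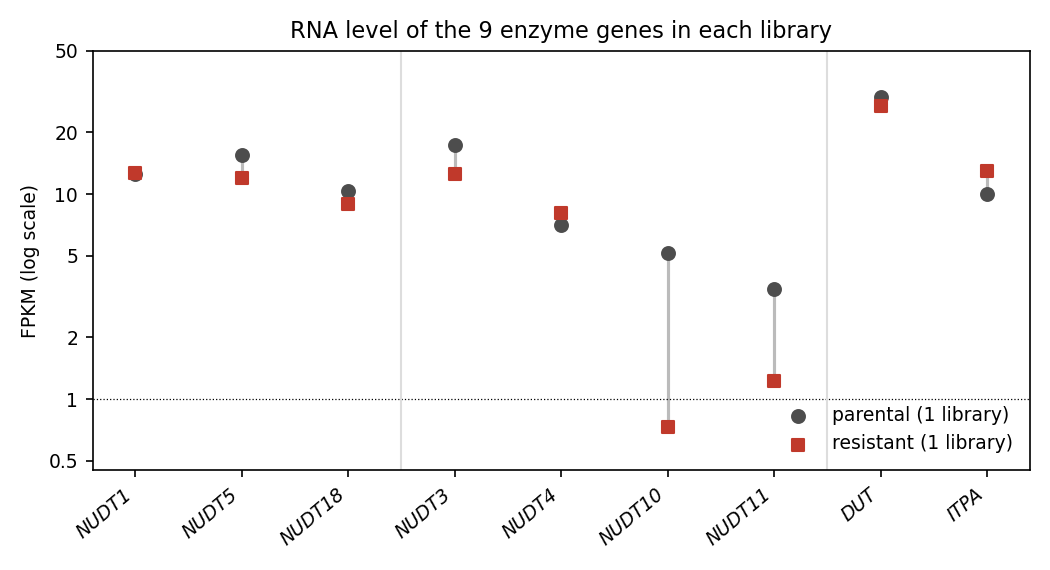
FPKM (log axis) of each gene in the parental library (circles) and the resistant library (squares), joined by a line, with grey verticals between the groups by substrate and a dotted line at 1 FPKM. NUDT10 and NUDT11 have the longest lines, and both lie below the other 7 genes in each library.

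Both genes lie on the X chromosome, 152 kb apart and on opposite strands. NUDT10 is at chrX:51332231-51337525 on the plus strand, and NUDT11 is at chrX:51490011-51496592 on the minus strand (GRCh38). Since their coding sequences are so alike, exact matches of 150 bases, the read length given in the labels, were searched in all other transcripts of GENCODE release 29. Of 1852 such windows in NUDT10, 79 were also in NUDT11 (4.27%), and these were the only matches. The 79 windows were 3.53% of the windows of NUDT11. Most windows of each searched transcript therefore had no exact match in the other gene. Windows that differ at only a few bases were not counted, and the other of the 2 NUDT10 transcripts was not searched. How the counting treated reads with several matches was not given in the sources used here. With the counts of both genes summed, the pair was 4.26-fold lower in resistant cells (3.76 to 4.85), from 1264 and 301 counts. That sum does not depend on how shared reads were split between the pair.

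The promoters of the pair are shown because both genes were low together. RefSeq gives NUDT10 an upstream start and a start next to its coding exon. The span of the deposited NUDT10 row begins at the upstream start, 51332231, while the 1 transcript that the row lists begins at 51332830 in GENCODE release 29, near the other start. Which start these cells use was not tested. The window at the start near the coding exon is printed, and the upstream window is described after it. The windows run from 250 bases before to 50 after the start (GRCh38.p14), each printed 5′ to 3′ on the strand of the gene, with GC boxes in capitals.
NUDT10, chrX:51332572-51332871, plus strand: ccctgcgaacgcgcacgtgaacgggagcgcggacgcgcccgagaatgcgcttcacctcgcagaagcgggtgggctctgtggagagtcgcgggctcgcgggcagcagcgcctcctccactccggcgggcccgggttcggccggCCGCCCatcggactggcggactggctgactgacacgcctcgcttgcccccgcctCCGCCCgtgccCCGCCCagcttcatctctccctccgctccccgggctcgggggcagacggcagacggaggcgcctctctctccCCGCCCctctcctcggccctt
NUDT11, chrX:51496543-51496842, minus strand: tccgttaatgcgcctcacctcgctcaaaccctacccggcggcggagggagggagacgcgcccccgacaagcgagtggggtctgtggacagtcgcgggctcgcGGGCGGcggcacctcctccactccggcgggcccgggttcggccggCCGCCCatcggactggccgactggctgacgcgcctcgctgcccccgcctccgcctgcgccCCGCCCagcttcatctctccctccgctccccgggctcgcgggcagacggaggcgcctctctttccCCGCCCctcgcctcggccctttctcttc
A local alignment matched 213 of 226 aligned bases (94.2%) between these windows, with gaps left out of the count. Each held 40 CpG sites, more than 92.4% of 35116 RefSeq promoter windows, whose median was 14. Each had a GC content of 74.7%, against a median of 58.7%. The GC box was searched as GGGCGG on both strands, and each window held 4 copies. Of all promoter windows, 44.95% held at least 1 copy. The letters CCAAT and TATAAA were not in either window on either strand. They were in 34.6% and 11.5% of all windows. The window at the upstream start of NUDT10 had 9 CpG sites and no GC box, and its best local match to the NUDT11 window was 9 bases.

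The neighbours of the pair that reached 1 FPKM were lower in resistant cells by counts, though less so than the pair. By the same counting intervals, 39.1% of all expressed genes were lower and 33.7% higher. Of the 397 expressed genes of the X chromosome, 137 were lower and 134 higher by these intervals. Among neighbours below 1 FPKM, SHROOM4 was higher, and the interval of CCNB3 held equal levels. SHROOM4, the next gene with a symbol before NUDT10, was higher in resistant cells by counts (2.31-fold, 1.95 to 2.74) at low levels of 0.29 FPKM in parental and 0.67 in resistant cells. On the other side of NUDT11, GSPT2, a translation termination factor gene, was at 3.23 FPKM in parental and 2.40 in resistant cells (0.746-fold, 0.659 to 0.844). MAGED1 was at 2.85 FPKM in parental and 1.93 in resistant cells (0.679-fold, 0.619 to 0.744). On the NUDT10 side, beyond SHROOM4, the chloride transporter gene CLCN5 was at 1.84 FPKM in parental and 1.63 in resistant cells (0.890-fold, 0.824 to 0.960). CCNB3 was below 1 FPKM in both libraries, and IPO7P1 had 0 counts in both, which allows up to 3 counts each. The 397 expressed genes of the X chromosome had a median log2 ratio of -0.02. Of them 9 were at least 2-fold lower (2.27%), NUDT10 and NUDT11 included, and 1 was at least 2-fold higher (0.252%). Over all expressed genes these shares were 1.23% and 0.632%.

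**Figure D2:**
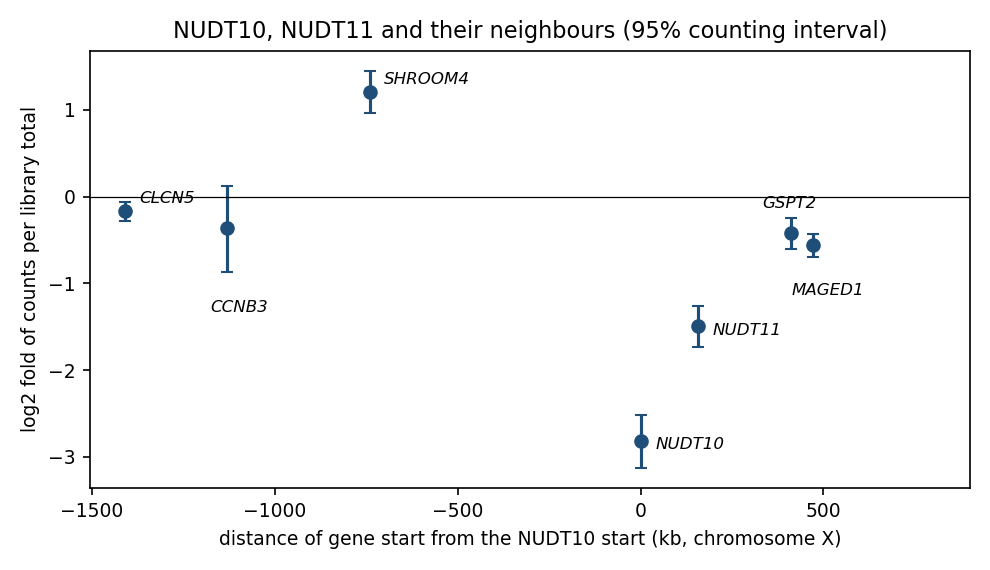
Log2 fold of library-scaled counts, resistant over parental, against the distance of each gene's start from the NUDT10 start in kb, with exact 95% counting intervals. NUDT10 and NUDT11 are the lowest, GSPT2, MAGED1 and CLCN5 lie below 0, and SHROOM4 lies above 0. CCNB3 lies below 0 with an interval that crosses it.

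NUDT3 and NUDT4, the more abundant diphosphoinositol phosphatases, went in opposite directions, and the value of NUDT3 depends on which rows are read. NUDT4 was at 7.06 FPKM in the parental and 8.11 FPKM in the resistant library (1.15-fold, 1.11 to 1.20). NUDT3 was at 17.3 FPKM in the parental and 12.6 FPKM in the resistant library, from 11407 and 8425 counts (0.728-fold, 0.708 to 0.749). NUDT3 shares sequence with RPS10-NUDT3, a gene annotated as reading through from the ribosomal protein gene RPS10. In GENCODE, 43.3% of the exon bases of NUDT3 are also exon bases of the read-through. Of the exon bases of the read-through, 99.7% belong to NUDT3 or to RPS10 too.

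The 3 rows differed in opposite directions. RPS10-NUDT3 had 5639 counts in parental and 24562 in resistant cells (4.29-fold, 4.17 to 4.42), while RPS10 had 50472 and 36989 in the same order (0.722-fold, 0.713 to 0.732). The folds of RPS10 and of NUDT3 were nearly the same. NUDT3 and the read-through summed gave 1.91-fold (1.87 to 1.94), a sum in which most resistant counts are those of the read-through. With RPS10 added, the locus gave 1.02-fold (1.01 to 1.03). On the opposite strand, the gene AL354740 overlaps NUDT3 by 7090 bases of the deposited spans, and 71.1% of the 150-base windows of the NUDT3 transcript lie, as the reverse complement, in its transcripts. AL354740 was at 0.08 FPKM in parental and 0.04 in resistant cells. Given the sums above, the lower value of the NUDT3 row is uncertain, and a division of shared reads between these rows that differed between the libraries was not tested.

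For NUDT4, 9.44% of the windows of 150 bases were also in its copies NUDT4B and NUDT4P2 on chromosome 1, and 24.2% lay on the strand opposite to UBE2N, whose 3′ end overlaps that of NUDT4. NUDT4B was at 7.78 FPKM in parental and 8.81 in resistant cells, and NUDT4P2 at 8.43 and 9.44. NUDT4 and its copies summed gave 1.15-fold (1.11 to 1.19). UBE2N, a ubiquitin-conjugating enzyme gene, was at 18.6 FPKM in parental and 20.2 in resistant cells (1.09-fold, 1.06 to 1.12). The libraries kept the strand of origin, but the strand setting of the counting was not given in the sources used here.

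Summed over the 4 genes, the FPKM of diphosphoinositol phosphatases was 32.99 in parental and 22.6 in resistant cells. NUDT10 and NUDT11 made up 26.2% of this sum in parental and 8.62% in resistant cells. NUDT4 made up 21.4% and 35.9%, and NUDT3 made up 52.4% and 55.5%. The sum and the shares carry the uncertainty of NUDT3 given above. The read-through RPS10-NUDT3, at 16.17 FPKM in parental and 69.22 in resistant cells, was left out of the sum. With it added, the sum would be higher in resistant cells, so the direction of the total depends on this choice. NUDT4B and NUDT4P2, the copies of NUDT4 described above, were not part of the sum.

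The enzymes for oxidised purine nucleotides lay between 8.95 and 15.4 FPKM in the libraries. NUDT1 was at 12.5 FPKM in the parental and 12.7 FPKM in the resistant library, with a fold of 1.02 (0.952 to 1.09). NUDT1 was the only member whose counting interval held equal levels. NUDT5, which also breaks down ADP-ribose, was at 15.4 FPKM in parental and 12.01 in resistant cells (0.780-fold, 0.749 to 0.813). NUDT18 was at 10.4 FPKM in parental and 8.95 in resistant cells (0.866-fold, 0.797 to 0.941). Exact matches of 150 bases to other genes were not found in the transcript searched of NUDT1 (783 bases), NUDT5 (919) or NUDT18 (1497). The other transcripts of these genes were not searched. NUDT5 overlaps the translocon gene SEC61A2 on the opposite strand by 4632 bases of the deposited spans, and SEC61A2 was at 3.23 FPKM in parental and 2.67 in resistant cells.

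DUT was the most abundant member in each library, at 29.6 FPKM in parental and 26.8 in resistant cells (0.907-fold, 0.878 to 0.938). Its first bases overlap the opposite-strand noncoding gene AC023355, which was below 1 FPKM in both. The gene row does not separate the nuclear and mitochondrial forms of dUTPase. ITPA was the member highest in resistant relative to parental cells, at 10.0 FPKM in parental and 12.9 in resistant cells (1.29-fold, 1.20 to 1.39). No other gene overlaps ITPA in the table. No exact match of 150 bases to another gene was found in the 1 of its 10 transcripts that was searched.

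**Figure D3:**
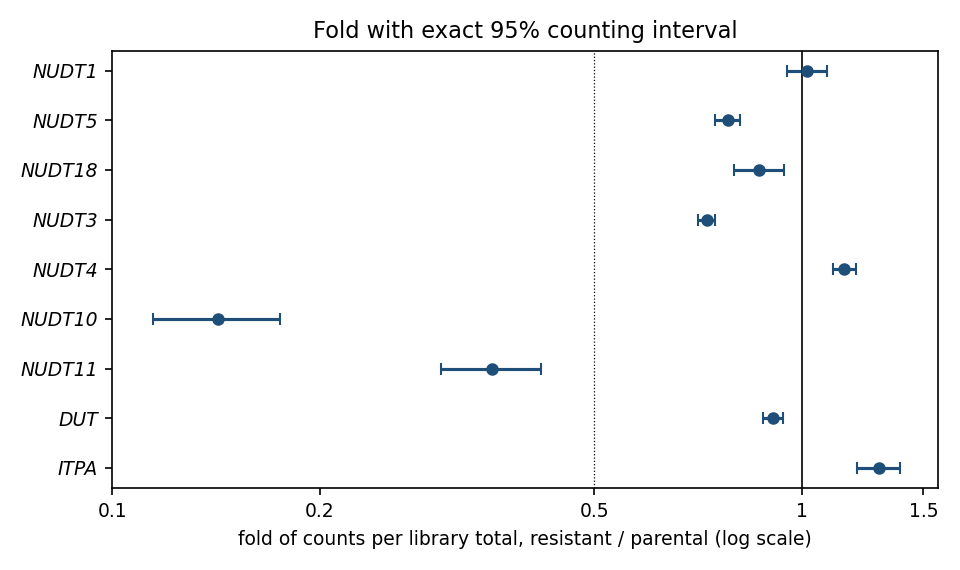
Fold of library-scaled counts, resistant over parental (log axis), with exact 95% counting intervals for each member; the solid line marks equal levels and the dotted line a fold of 0.5. NUDT10 and NUDT11 lie left of the dotted line, ITPA and NUDT4 lie right of the solid line, and the interval of NUDT1 crosses it.

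By counting error alone, 6 members were lower, 2 were higher and 1 could not be told from equal. At this depth the interval excluded equal levels for 72.8% of all expressed genes, with 39.1% lower and 33.7% higher, so 8 of 9 is no result about the members. The members were also set beside genes of a similar level. With expressed genes cut into 20 bins of mean expression, 7 of the 9 members lay inside the central 95% of the log2 ratios of their bin. NUDT10 and NUDT11 lay below it, as 95% of the 569 genes of their shared bin lay between -0.86 and 0.83.

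**Figure D4:**
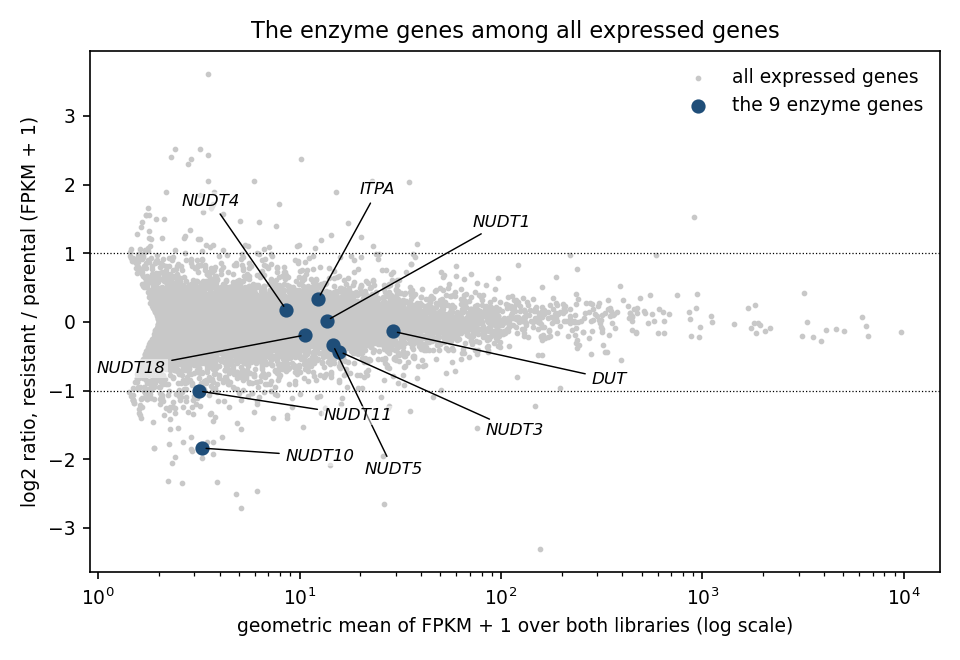
Log2 ratio of FPKM + 1, resistant over parental, against the geometric mean of FPKM + 1 over both libraries (log axis), for all expressed genes (grey) and the 9 members (blue), with dotted lines at the 2-fold rule. NUDT10 and NUDT11 lie at or below the lower dotted line, and the other 7 lie within the grey cloud.

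The order of levels differed between the libraries mainly through ITPA, NUDT3 and NUDT5. In parental cells the order from the highest was DUT, NUDT3, NUDT5, NUDT1, NUDT18, ITPA, NUDT4, NUDT10 and NUDT11. Within it the neighbours NUDT18 (9.79 to 10.97 FPKM) and ITPA (9.46 to 10.6 FPKM) had overlapping exact Poisson intervals, and all other neighbours were separate. In resistant cells ITPA (12.3 to 13.5 FPKM), NUDT1 (12.1 to 13.3) and NUDT3 (12.3 to 12.8) overlapped, and NUDT5 (11.6 to 12.4) overlapped each of them. NUDT10 and NUDT11 changed places at the bottom, with NUDT11 (1.06 to 1.40 FPKM) above NUDT10 (0.596 to 0.885).

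Other genes of these pathways were described from lists chosen with earlier results of these data known. Over all expressed genes only 1.86% were at least 2-fold apart, so a count of 0 in a short list is no result about that list. Of 20 other genes with a Nudix domain, 18 were expressed and 0 were at least 2-fold apart, with a median log2 ratio of -0.01. The cation channel gene TRPM2, whose Nudix-like domain binds ADP-ribose, was at 16.1 FPKM in parental and 11.8 in resistant cells. The isoprenoid enzyme gene IDI1 was at 23.7 and 18.5, and the ADP-ribose pyrophosphatase gene NUDT9 was at 3.95 and 5.08 in the same order. Among 6 other enzymes that clear nucleotides, 0 were at least 2-fold apart and the median was -0.17. DNPH1, which hydrolyses hydroxymethyl-dUMP, was at 35.4 FPKM in parental and 23.7 in resistant cells (0.670-fold, 0.633 to 0.710). ASMTL was at 8.48 and 6.73 in the same order, and the dCTP pyrophosphatase gene DCTPP1 was at 47.1 and 41.6.

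Base excision repair removes oxidised bases, uracil and hypoxanthine once they are in DNA, and so acts after the pool enzymes. All 15 listed genes were expressed, 0 were at least 2-fold apart, and the median was -0.11, with 10 below 0 and 5 above. Over all 11388 expressed genes 6065 were below 0 and 5277 above. The glycosylase gene MPG was at 22.2 FPKM in parental and 17.97 in resistant cells. The endonuclease gene APEX1 was at 183 and 157 in the same order, and the polymerase gene POLB was at 4.68 and 3.90.

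Inositol pyrophosphates, the substrates of the diphosphoinositol phosphatases, are made by IP6K and PPIP5K kinases from inositol hexakisphosphate. Of 12 listed genes of this pathway, 11 were expressed, 0 were at least 2-fold apart, and the median log2 ratio was -0.04. The inositol trisphosphate kinase gene ITPKA was at 3.24 FPKM in parental cells and 0.588-fold that level in resistant cells (0.504 to 0.685). IPPK, which makes inositol hexakisphosphate, was at 2.56 and 1.71 in the same order (0.668-fold, 0.600 to 0.743). MINPP1, a phosphatase of inositol phosphates, was at 2.52 and 3.56 (1.42-fold, 1.27 to 1.59).

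**Figure D5:**
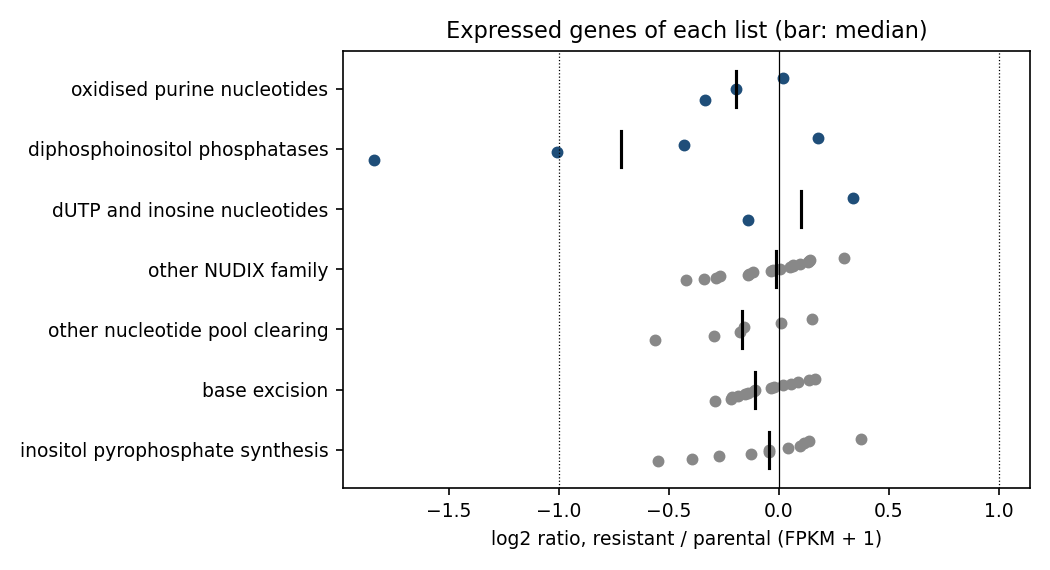
Log2 ratio of FPKM + 1, resistant over parental, for each expressed gene of the 3 member groups (blue) and the 4 other lists (grey), with a bar at the median and dotted lines at the 2-fold rule. The points past the rule are NUDT10 and NUDT11.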

How the data were processed

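The deposited table gives, per the file headers, FPKM with 2 decimals and whole-number counts for 1 library of each group. The build was GRCh38, per the submitters' processing notes, which name StringTie 1.3.4d, HISAT2 2.0.4, cutadapt 1.9, edgeR and DESeq2 without saying what each did. The resistant count column carries an unexplained suffix; over 7748 well covered genes its ratios and those of FPKM correlated at 1.00 across genes. Columns were matched to samples by the titles.

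Genes with a symbol and at least 1 FPKM in at least 1 library counted as expressed. Before log2 ratios were taken, 1 FPKM was added as a pseudocount, so ratios of low genes are shrunk. Folds are ratios of counts over the library total, with exact 95% Clopper-Pearson intervals. Read pairs need not be independent molecules. With 1 library per group no test was made. The size rule and the counting intervals were tried on simulated counts with counting noise only. Changes were planted only in genes with a mean of at least 5 FPKM, a level above the means of NUDT10 and NUDT11. Alternatives covered pseudocount, filter, scaling, size rule and summed rows. Named genes were the members, the 3 genes of each other list with the highest absolute log2 ratio, genes that overlap a member and neighbours of NUDT10 and NUDT11. RPS10, NUDT4B and NUDT4P2 were named as relatives of members. LYZ, MPO and CSF1R are the 3 such genes of the myeloid marker list, and its other genes were named after their values were seen. Members and lists were chosen with earlier results of these data known. Python 3.11.15, pandas 2.3.3, scipy 1.17.1 and biopython 1.88 were used, with GENCODE release 29 transcripts and RefSeq promoters.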

Additional observations from a re-analysis of the deposited data

How the results depend on the processing

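The count of members at least 2-fold lower was 2, and became 0 with a pseudocount of 5 FPKM and 1 with a minimum of 5 FPKM, which removes NUDT11. It stayed at 2 with a pseudocount of 0.1 FPKM, with CPM ratios, with median of ratios scaling, without a filter and with a 1.5-fold rule. NUDT3 was at -0.43 on the log2 scale, but at 0.93 (counts over the library total) with the read-through added. With RPS10 added too, an alternative chosen after seeing the data, the log2 ratio was 0.030. NUDT10 ranged from -0.83 with a pseudocount of 5 FPKM to -2.81 as a CPM ratio, and NUDT11 from -0.44 to -1.50 under the same settings. No paired analysis was possible because each group has 1 library. Nor could a library be left out. Low counts limit NUDT10 most, with 103 counts in the resistant library.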
